A study of Mus musculus with 4 samples.

Results

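The genes described here form the block of mouse chromosome 16 that corresponds to the human 22q11 deletion region. A list of 31 gene symbols defined them, and 29 of the 24689 genes in the deposited table carried one of these symbols. The members were selected on the log2 fold changes between induced and control cells, as genes inside a stretch of chromosome 16 that is higher in induced cells. Their values in this contrast are therefore a description, without a test. Serpind1, the heparin cofactor gene, and Rtn4r, the Nogo receptor gene, had no row and were not analysed here. All 29 genes lay on chromosome 16 in the GENCODE M21 annotation, 14 on the plus strand and 15 on the minus strand.

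RNA was sequenced from HT-22 cells, a line of immortalized neurons from mouse hippocampus, in 4 libraries from cells at passages 21 to 24. The 2 control libraries came from cells called uninduced in one label and wild type in another, and the 2 induced libraries from cells with induced Pja2, a RING-type E3 ubiquitin ligase gene, titled Pja2-pb. The labels give neither the inducing agent nor whether both groups descend from 1 line or clone, so the induction and any difference between lines cannot be told apart. Pja2 itself had 6167 and 5881 normalized reads in control libraries and 54830 and 54244 in induced libraries. Each control library held 25787452 or 31010351 reads in genes and each induced library 30080376 or 35262653. A normalized read is a read count after the authors' scaling between libraries.

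The human region is known for the recurrent deletion behind DiGeorge and velocardiofacial syndromes, in which 1 copy of many neighbouring genes is lost at once. Its genes have unrelated tasks, among them microRNA processing, DNA replication, nuclear transport, mitochondrial metabolism and synaptic or membrane signalling. In the mouse they sit together on chromosome 16 in a partly rearranged order, which has made mice with altered copies of this block a common model in brain research.

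Several members start head to head from a shared stretch of DNA, and these stretches are shown because both genes of each pair could be compared in the same libraries. RefSeq promoter windows (build GRCm38.p6, 250 bases before to 50 after a start) matched 30 of the 31 symbols, with 37 windows. Between 2 member genes on opposite strands, 4 pairs of starts lay within 1000 bases of each other. Pi4ka and Snap29 were 134 bases apart, Ranbp1 and Trmt2a 188, Tango2 and Arvcf 83, and Cdc45 and Ufd1l 321. The sequences below are the parts between the starts that lie in no annotated UTR, on the plus strand, with the motifs searched in capitals; the first holds none of them.
Pi4ka and Snap29, chr16:17405894-17405985: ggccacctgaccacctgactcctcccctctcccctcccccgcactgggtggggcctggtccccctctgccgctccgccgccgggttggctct
Ranbp1 and Trmt2a, chr16:18248733-18248882: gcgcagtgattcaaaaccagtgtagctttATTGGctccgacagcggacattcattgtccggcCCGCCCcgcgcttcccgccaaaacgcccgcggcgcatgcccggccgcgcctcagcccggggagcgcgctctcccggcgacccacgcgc
Tango2 and Arvcf, chr16:18348104-18348181: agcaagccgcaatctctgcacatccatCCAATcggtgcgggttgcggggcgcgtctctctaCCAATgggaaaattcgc

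For Cdc45 the stretch before its start is shown on its own strand, and beside it those of Dgcr14, which had the highest log2 fold change after Prodh, and of Slc25a1, which had the lowest after Gp1bb and Car15. All 3 are on the minus strand of GRCm38.p6, written in the direction of the gene.
Cdc45, chr16:18811988-18812222: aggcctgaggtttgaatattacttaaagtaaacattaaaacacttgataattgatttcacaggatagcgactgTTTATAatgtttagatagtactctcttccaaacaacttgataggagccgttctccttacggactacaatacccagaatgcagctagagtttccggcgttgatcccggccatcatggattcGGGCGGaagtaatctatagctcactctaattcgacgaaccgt
Dgcr14, chr16:17911349-17911598: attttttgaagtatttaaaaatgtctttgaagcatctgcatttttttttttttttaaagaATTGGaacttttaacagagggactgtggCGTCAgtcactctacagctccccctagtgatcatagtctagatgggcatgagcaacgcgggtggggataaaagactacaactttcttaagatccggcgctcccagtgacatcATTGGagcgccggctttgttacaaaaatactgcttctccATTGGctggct
Slc25a1, chr16:17928220-17928469: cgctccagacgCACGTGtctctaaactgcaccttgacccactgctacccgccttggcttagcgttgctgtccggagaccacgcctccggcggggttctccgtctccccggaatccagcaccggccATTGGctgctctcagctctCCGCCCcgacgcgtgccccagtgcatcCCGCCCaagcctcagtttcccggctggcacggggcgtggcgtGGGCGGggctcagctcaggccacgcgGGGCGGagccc

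The motifs were searched on both strands in whole windows. None contains the letters of another, but matches can share bases. Some windows of the same gene or of neighbouring genes also share bases, so the windows are not independent. The GC box GGGCGG occurred in 24 of 37 member windows (64.9%) and in 35.7% of all 32851 windows. The ETS motif CCGGAAG occurred in 24.3% of member windows and 8.86% of all, and the CCAAT box in 45.9% and 37.4%. The cyclic AMP response core TGACG was present in 32.4% of member windows and 20.8% of all, the TATA motif TATAAA in 8.11% and 13.6%, and the E-box CACGTG in 2.70% and 7.15%. Counted by gene, the GC box was found in 21 of the 30 matched symbols, the CCAAT box in 14 and TGACG in 12. The ETS motif was found in 7, the TATA motif in 3 and the E-box in 1. Member windows had a median GC content of 63.3%, against 52.7% over all windows. A match describes these letters only.

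Of the 29 members 26 had a mean of at least 1 CPM (recovered reads scaled to a common library total) and entered the fit over all genes. Of these 26, 22 had a log2 fold change above 0 and 4 below 0, with a median of 0.33, while the median of all 13276 tested genes was 0.00. Log2 fold changes are differences between group means of the deposited log2 values, induced minus control. Both induced libraries lay above both controls in 19 of the 26 members, beside 26.2% of all tested genes. Among the tested genes of chromosome 16, members included, that share was 67.5%. Car15 and Gp1bb lay below both controls in both induced libraries, beside 25.1% of all tested genes, and Lztr1, Dgcr2, Slc25a1, Tango2 and Txnrd2 overlapped. The fit over all genes called 7 members higher (Pi4ka, Scarf2, Dgcr14, Ranbp1, Trmt2a, Dgcr8 and Hira) and 0 lower. Of all tested genes 2.08% were called higher and 1.34% lower, and of those on chromosome 16 21.1% and 1.49%. Each of the 7 was called in 4 or 5 of 10 alternative fits, and the fits without 1 library called 0 to 1 members. As the choice of members used this contrast, nothing is read from these counts.

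**Figure D1:**
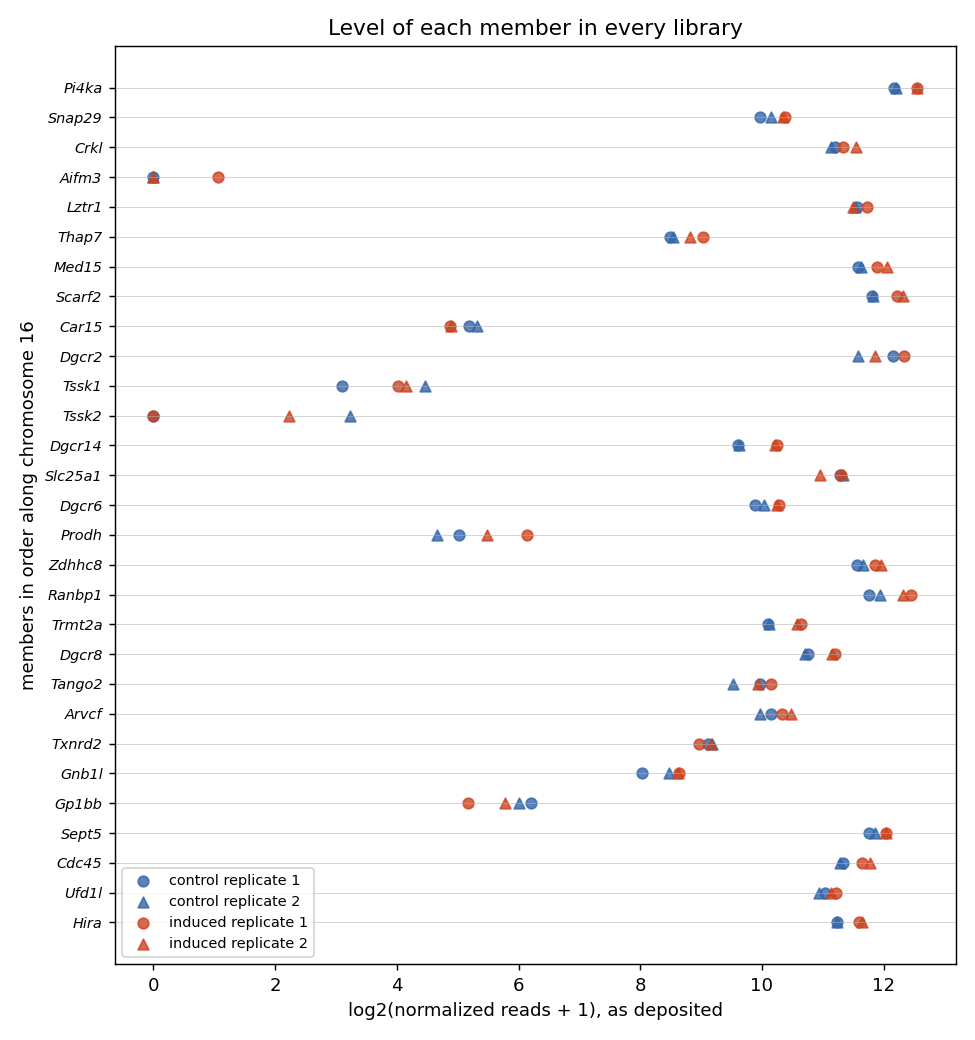
Deposited log2(normalized reads + 1) of the 29 members (x axis) in each of the 4 libraries, in order along chromosome 16 (y axis); blue marks are controls, red marks induced cells, circles replicate 1 and triangles replicate 2. In 19 of the 26 tested members both red marks lie to the right of both blue marks, and Aifm3, Tssk1 and Tssk2 sit near the bottom of the scale.

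Summed over the 29 members, the controls held 49680 and 48988 normalized reads and the induced cells 62082 and 60543. The sums of the 2 groups did not overlap, but this contrast chose the members, so nothing is read from that. In bulk RNA a change in the share of cells that express a gene and a change in RNA per cell cannot be told apart. Compared per length, as normalized reads per kb of annotated exon averaged over the 4 libraries, Ranbp1 was the most abundant member at 2713. Scarf2 (1110), Slc25a1 (1105), Sept5 (994) and Cdc45 (838) followed, while Gp1bb (26.9), Car15 (17.2) and Prodh (5.41) stood at the lower end of the tested members. On the same strand Sept5 shares 2206 exon bases with Gm49601 and 1902 with Gp1bb, and Car15 shares 1253 with Gm20518. The levels of these genes depend on how shared reads were counted, which was not tested. Values over the libraries were 930 to 1330 per kb for Scarf2, 921 to 1185 for Slc25a1, 885 to 1075 for Sept5 and 708 to 996 for Cdc45. Within each of the 4 libraries Cdc45 was below Scarf2 and Sept5. The order of every other pair among these genes changed between libraries and is not resolved.

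Among the genes that act in the nucleus, Dgcr14, which encodes a nuclear protein associated with the spliceosome, had the highest log2 fold change. Its normalized reads were 781 and 784 in control libraries and 1219 and 1185 in induced libraries. The replicates of each group were close together and the groups lay far apart, with means of 782 ± 1.86 and 1202 ± 23.9 (SD, n = 2) and a log2 fold change of 0.62 (SE 0.08). Dgcr8, the RNA-binding partner of Drosha in the Microprocessor that releases microRNA precursors, had 1730 and 1676 in control libraries and 2357 and 2274 in induced libraries, 1.36-fold higher (log2 0.44, SE 0.07). Hira, a chaperone that places histone H3.3 on chromatin, had 2412 and 2398 against 3084 and 3189, 1.30-fold higher. The controls of Hira differed by far less than the groups did. The exons of Hira overlap those of Gm28539 by 2778 bases on the same strand. Gm28539 had 15 reads in induced replicate 2 and 0 in the other libraries, and how the counting divided shared reads was not tested.

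Cdc45, a part of the helicase that opens DNA at the replication fork, had 2578 and 2481 normalized reads in control libraries and 3205 and 3494 in induced libraries (log2 0.40, SE 0.07). Ufd1l, which starts from the same stretch of DNA in the other direction and encodes an adaptor of the p97 segregase, had 2108 and 1954 against 2381 and 2254 (log2 0.19, SE 0.08). Both genes of the pair had higher values in both induced libraries, and the exons of the pair overlap by 209 bases, so reads there cannot be assigned to a strand. Med15, a subunit of the Mediator tail that links transcription factors to RNA polymerase II, had 3054 and 3151 against 3799 and 4250. Thap7, a zinc-finger protein gene of the THAP family, had 360 and 372 against 521 and 452. The groups of Med15 and of Thap7 did not overlap, and their log2 fold changes were 0.37 (SE 0.08) and 0.41 (SE 0.12).

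Ranbp1 and Trmt2a share the second of the stretches shown above. Ranbp1, which binds Ran and promotes GTP hydrolysis after nuclear export, had 3448 and 3950 normalized reads in control libraries and 5575 and 5106 in induced libraries. Trmt2a, a tRNA uracil methyltransferase gene, had 1099 and 1115 in control libraries and 1595 and 1519 in induced libraries. The ratio of group means was 1.44 for Ranbp1 and 1.41 for Trmt2a, and log2 fold changes were 0.53 (SE 0.09) and 0.49 (SE 0.08). The exons of Trmt2a overlap those of Dgcr8 by 825 bases on the opposite strand and those of Ranbp1 by 54, and the library kit does not mark strand, so these neighbours can share reads.

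Of the genes for membrane and signalling proteins, Pi4ka, the kinase that makes phosphatidylinositol 4-phosphate at the plasma membrane, had 4604 and 4734 in control libraries and 6011 and 5957 in induced libraries. The difference was many times the gap between replicates (means 4669 ± 92.1 and 5984 ± 38.5, log2 0.36, SE 0.06). Its divergent neighbour Snap29, a SNARE of membrane fusion, had 996 and 1129 against 1333 and 1300, 1.24-fold higher. Scarf2, a scavenger receptor family gene, had 3569 and 3618 against 4752 and 5107, 1.37-fold higher (log2 0.46, SE 0.07). The groups of Pi4ka, Snap29 and Scarf2 did not overlap. Crkl, an adaptor that links tyrosine kinases to guanine nucleotide exchange factors, had 2363 and 2261 against 2587 and 2979, with induced replicate 2 well above induced replicate 1. Its log2 fold change of 0.26 (SE 0.09) was 0.16 without induced replicate 2.

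Zdhhc8, a palmitoyltransferase gene, had 3017 and 3226 in control libraries and 3702 and 3988 in induced libraries, and Sept5, a septin of nerve terminals, 3463 and 3707 against 4207 and 4185. Arvcf, a catenin of adherens junctions, had 1136 and 995 against 1287 and 1424. These 3 genes were higher in both induced libraries, with log2 fold changes of 0.30 (SE 0.07), 0.23 (SE 0.07) and 0.35 (SE 0.10). Tango2, the divergent neighbour of Arvcf, whose loss causes a metabolic disease with crises, had 1001 and 734 against 1132 and 974. Control replicate 1 of Tango2 exceeded induced replicate 2, so the groups overlapped, and the log2 fold change of 0.29 (SE 0.17) was 0.07 without control replicate 2, 0.18 without induced replicate 1 and 0.52 without control replicate 1. Gnb1l, a WD40 repeat gene, had 259 and 355 against 396 and 393, and Dgcr6 had 942 and 1047 against 1236 and 1220. Neither pair of groups overlapped. The log2 fold change of Gnb1l, 0.38 (SE 0.18), was 0.15 without control replicate 1 and 0.60 without control replicate 2.

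Dgcr2, a membrane protein with a lectin-like domain, and Lztr1, which hands RAS proteins to the Cul3 ubiquitin ligase, were abundant members whose groups overlapped. Dgcr2 had 4576 and 3064 normalized reads in control libraries and 5137 and 3702 in induced libraries, so replicate 1 exceeded replicate 2 in both groups by more than the groups differed. Its log2 fold change of 0.22 (SE 0.23) was -0.07 without control replicate 2 and -0.02 without induced replicate 1. Lztr1 had 3007 and 2944 against 3386 and 2876, and its log2 fold change of 0.07 (SE 0.09) was -0.05 without induced replicate 1. Across the 26 tested members replicate 1 was above replicate 2 in both groups in 6 and below it in both groups in 5, so the gaps had no common direction.

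The mitochondrial members differed from one another. Slc25a1, the citrate carrier that feeds fatty acid synthesis, had 2479 and 2563 normalized reads in control libraries and 2533 and 1993 in induced libraries. Only induced replicate 2 was low, and the log2 fold change of -0.17 (SE 0.12) was 0.01 without it. Txnrd2, the mitochondrial thioredoxin reductase gene, had 553 and 576 against 497 and 575, with induced replicate 2 between the controls (log2 -0.08, SE 0.12; 0.03 without induced replicate 1). Prodh, the first enzyme of proline breakdown, had 31.4 and 24.2 against 69.6 and 43.6, from 25, 23, 64 and 47 reads. It had the highest log2 fold change of all members, 0.97, with the widest SE, 0.36, and it ran from 0.64 to 1.30 when 1 library was left out.

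Gp1bb, a subunit of the platelet von Willebrand factor receptor, and Car15, a carbonic anhydrase, were lower in both induced libraries. Gp1bb had 72.9 and 63.2 normalized reads in control libraries and 34.8 and 53.8 in induced libraries (log2 -0.64, SE 0.31). This was -0.33 without induced replicate 1 and -0.94 without induced replicate 2. Car15 had 35.2 and 39.0 against 28.3 and 28.7 (log2 -0.37, SE 0.31). Both are covered by other gene models: the exons of Gp1bb overlap those of Sept5 by 1902 bases and the exons of Car15 those of Gm20518 by 1253. How the counting divided those reads was not tested. Aifm3, a member of the apoptosis-inducing factor family, had 1 read in induced replicate 1 and 0 in the other libraries. The testis-specific kinase genes Tssk1 and Tssk2 had 6 to 20 and 0 to 8 reads per library, and these 3 genes did not enter the fit.

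**Figure D2:**
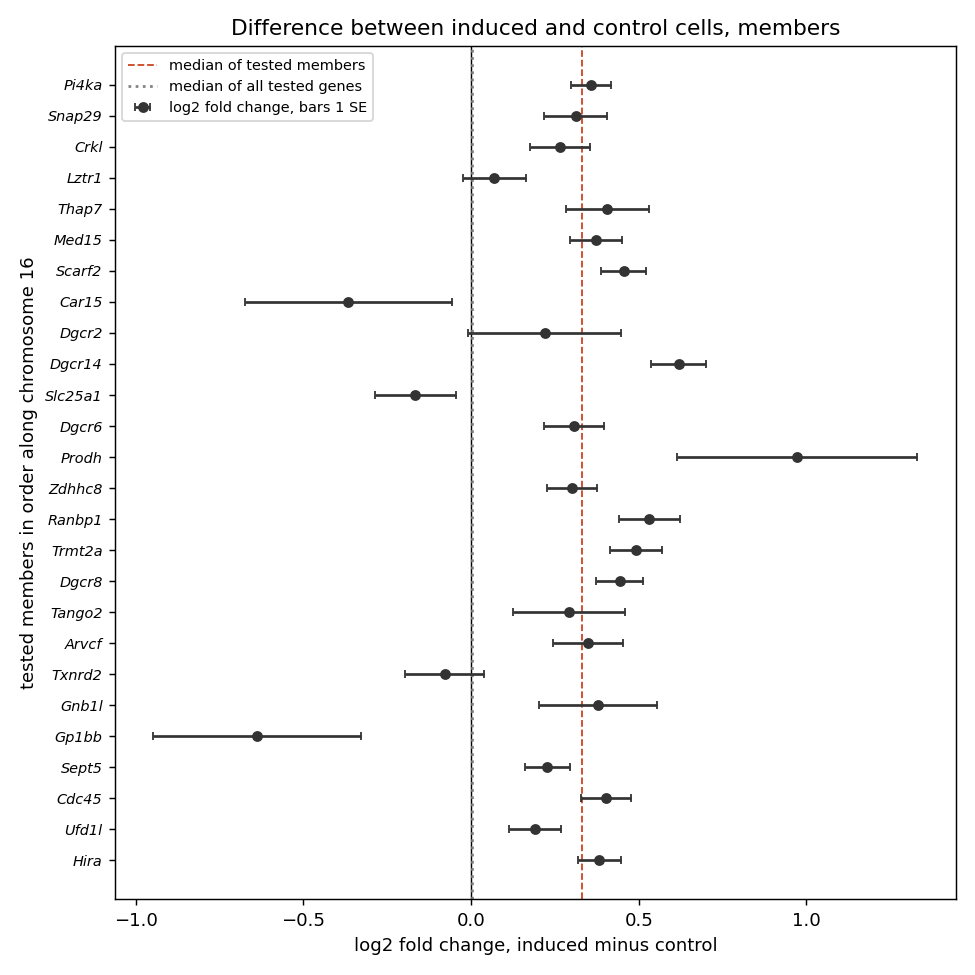
Log2 fold change (induced minus control, x axis) of the 26 tested members in order along chromosome 16 (y axis), with bars of 1 SE from the fit over all genes. The red dashed line is the members' median (0.33) and the dotted line that of all tested genes (0.00); Dgcr14 (0.62) and Prodh (0.97) lie farthest right and Gp1bb (-0.64) farthest left.

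Of the 18 tested members with a mean of at least 1000 normalized reads over the 4 libraries, 17 had a log2 fold change above 0, beside 51.1% of all tested genes at that level. In 15 of them both induced libraries lay above both controls, beside 28.7%. Among the 8 below that level 5 were above 0, beside 49.7% of all tested genes there. The contrast chose the members, so nothing is read from these counts either. Between 0.2 and 0.5 on the log2 scale lay 17 of the 26. The 10 tested members with no other gene on their exons had a median of 0.30 and the 16 with one had 0.35. In the human map the block from Pi4ka to Scarf2 lies in the distal part of the deletion region, and its 7 tested members had a median of 0.36. The other 19 had 0.31.

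Genes between the first and last member that are not in the list were next set beside the members. The annotation and the table gave 21 such genes, of which 10 were tested. Their median log2 fold change was 0.40, 9 of 10 were above 0, and 1, Smpd4, a sphingomyelin phosphodiesterase gene, was called higher (1864 and 1903 against 2473 and 2485 normalized reads). The highest were 2510002D24Rik at 0.71, Ccdc74a at 0.64 and Gm16314 at 0.63, and Gm20518 at -0.51 and Gm15764 at 0.15 were the lowest. Gm20518 shares exons with Dgcr2 and Car15, and Gm16314 with Gnb1l. The heart and pharyngeal arch factor gene Tbx1, named after its values were seen, had 3 reads in control replicate 2 and 0 in the other 3 libraries.

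The 3 tested genes before Pi4ka, Ube2l3, Hic2 and Tmem191c, had log2 fold changes of 0.36, 0.31 and 0.28. Of the 3 after Hira, Klhl24 had 0.39 and Yeats2 0.47, while Gm10241 had -0.09. Along chromosome 16 the 403 tested genes were put in order and a running median over 15 genes was taken. It lay between 0.31 and 0.39 from the first to the last tested member (ranks 97 to 132) and reached its highest value of 0.67 farther along. The running median was last at or above 0.3 at rank 322 (Cggbp1), but it was not so throughout: its lowest value up to that rank was 0.17. The 81 genes after that rank had a median of 0.06. The medians of the other autosomes and of X ran from -0.09 (chromosome 10) to 0.05 (chromosome 12), against 0.31 for chromosome 16.

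**Figure D3:**
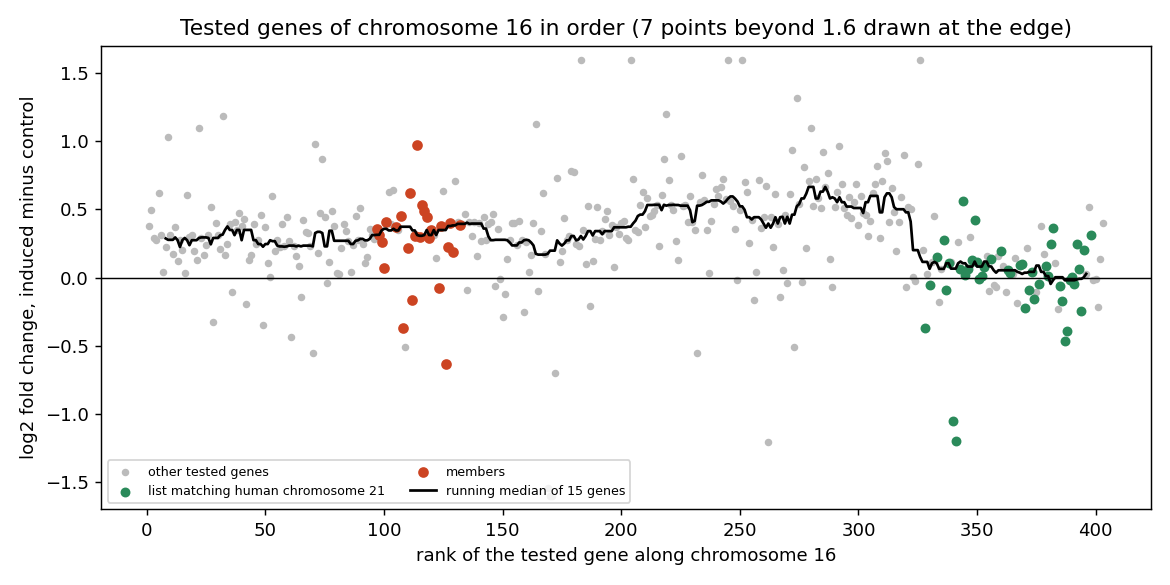
Log2 fold change (y axis, induced minus control) of the 403 tested genes of chromosome 16 by rank along the chromosome (x axis), with members in red, genes matching human chromosome 21 in green, all others in grey, and the running median of 15 genes as a line. The members sit at ranks 97 to 132 on a line between 0.31 and 0.39. The lowest value of the line is 0.17 up to rank 322 and -0.05 after it. Points beyond 1.6 in size, 7 in all, are drawn at the edge.

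In consecutive blocks of 50 tested genes the medians were 0.29, 0.27, 0.38, 0.28, 0.53, 0.52, 0.29 and 0.03 from the start of the chromosome to Prdm15. The block with 22 of the tested members, from Thap7 to Chrd, was the third at 0.38, and the blocks from Rnf168 to Senp7 stood higher at 0.53 and 0.52. Before the members, 96 tested genes of chromosome 16 showed a median of 0.28, and 88 were above 0. The 45 tested genes of a list that matches human chromosome 21, at the far end of the same chromosome, showed a median of 0.04; 28 were above 0, 0 were called higher and 2 lower. These values share the libraries and the contrast that chose the members, so they are given side by side and not tested.

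Genes outside chromosome 16 that work with the members were not used in choosing the members, and they were tested. Their lists were drawn up with earlier results of these data known, so the p-values are not independent of these data. From 19 lists of such partners, with 264 symbols including alternative spellings, 228 genes were tested after 7 on chromosome 16 had been left out, and 18 lists had a tested gene. By limma with adjustment over all 13276 genes, 2 partners were called higher in induced cells, 1 lower and 225 did not pass. This was 1.32% called, beside 3.42% of all tested genes. Among tested genes off chromosome 16, 1.48% were called higher and 1.34% lower. limma voom on the recovered reads also called 3 partners. The partners' median log2 fold change was 0.03, and 126 of 228 (55.3%) were above 0. Beside this stood 50.4% of all tested genes and 49.3% of those off chromosome 16. List medians ran from -0.20 to 0.12. The difference between members and partners was not tested, because the contrast chose the members.

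The genes that passed were partners of Crkl and of Txnrd2. Crk, the closest relative of Crkl and also an SH2 and SH3 adaptor, was higher in induced cells. It had 2089 and 1991 normalized reads in the controls and 7880 and 7865 in induced libraries. This was 3.86-fold (log2 1.95, SE 0.06, limma adjusted p = 0.000423, and 0.000356 to 0.00259 over 10 alternatives), whereas Crkl was 1.20-fold higher. Nedd9, a docking protein bound by both adaptors, was lower, with 2398 and 2067 in the controls and 1248 and 1417 in induced libraries (log2 -0.74, limma adjusted p = 0.0288). The exons of Nedd9 overlap those of Gm32401 on the other strand. Its call ended without the expression filter (adjusted p = 0.0664), without control replicate 1 (0.0696) and without induced replicate 1 (0.0646). The remaining 9 tested partners of Crkl did not pass, among them the tyrosine kinase gene Abl1 at a log2 fold change of 0.07 (limma adjusted p = 0.690).

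Prdx1, a cytosolic peroxiredoxin of the thioredoxin system, had 20692 and 22400 normalized reads in the controls and 32572 and 31289 in induced libraries (log2 0.57, SE 0.07, limma adjusted p = 0.0180). Its call ended without induced replicate 1 (adjusted p = 0.0574). The other 12 tested genes of that system, which includes Txnrd2, did not pass, and Txn1 had a log2 fold change of 0.15 (adjusted p = 0.364).

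In the other 16 lists 0 of 204 genes passed by limma or by limma voom, and 28 had an unadjusted limma p below 0.05. The matching share of all tested genes is not given here. The 28 are therefore not read as an excess or a lack. Of 31 Mediator subunits besides Med15 19 were above 0, at a median of 0.04, and Med13 had a log2 fold change of -0.03 (adjusted p = 0.878). Of 14 microRNA processing genes besides Dgcr8 9 were above 0, at a median of 0.07, and the helicase gene Ddx5 had 0.01 (adjusted p = 0.926). The replication fork list of Cdc45 had 18 of 21 genes above 0 and a median of 0.12, and Mcm6, a subunit of the helicase that holds Cdc45, had 0.13 (adjusted p = 0.336). In the Ran cycle of Ranbp1 the median was 0.02 and Kpnb1, an importin, had 0.22 (adjusted p = 0.142). Among histone H3.3 deposition genes, the list of Hira, H3f3b had -0.02 (adjusted p = 0.847), and among p97 cofactors, the list of Ufd1l, Vcp had 0.18 (adjusted p = 0.224).

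For citrate and proline metabolism, the pathways of Slc25a1 and Prodh, 1 of 11 partners was above 0 and the median was -0.11. Acly, which splits the citrate that Slc25a1 exports, had a log2 fold change of -0.29 (adjusted p = 0.0836). The SNARE genes beside Snap29 had a median of -0.03, with Ykt6 at 0.19 (adjusted p = 0.217), and the phosphoinositide genes beside Pi4ka 0.07, with Efr3a at -0.03 (adjusted p = 0.865). For RAS turnover, the task of Lztr1, the median was -0.03, with Ptpn11 at 0.09 (adjusted p = 0.566). Septins beside Sept5 had 0.06, with Sept11 at 0.23 (adjusted p = 0.330); of 2 gene models named Sept2 in that list 1 has no annotated chromosome. The palmitoyltransferases beside Zdhhc8 had -0.03, with Zdhhc5 at -0.09 (adjusted p = 0.506), and catenins and cadherins beside Arvcf 0.11, with Ctnnb1 at 0.18 (adjusted p = 0.630).

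The RNA methyltransferases beside Trmt2a had a median of 0.06, with Nsun2 at 0.20 (adjusted p = 0.213), and the THAP factors and corepressors beside Thap7 one of -0.01, with Hcfc1 at 0.08 (adjusted p = 0.566). Of the Nogo receptor partners 1 was tested, the ligand gene Rtn4, at 0.07 (adjusted p = 0.553), and of the platelet glycoprotein complex of Gp1bb 0 were.

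**Figure D4:**
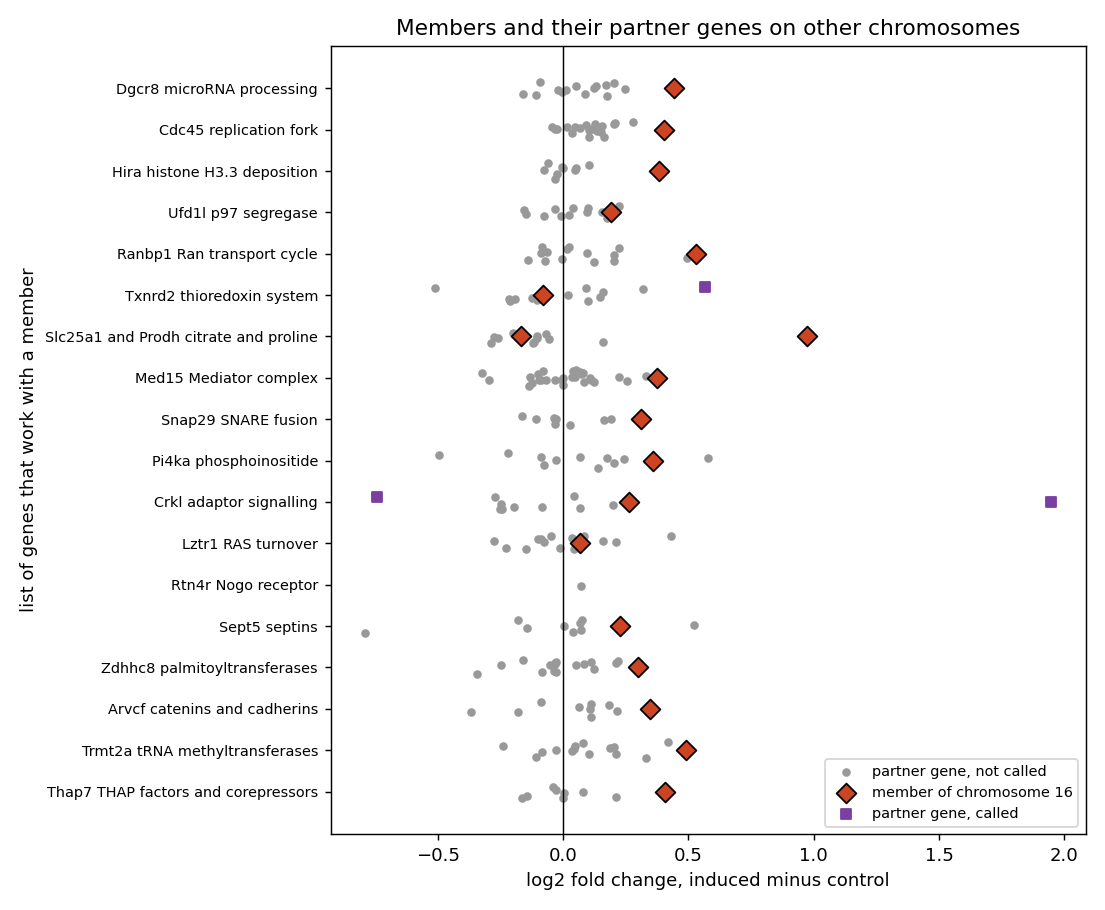
Log2 fold change (induced minus control, x axis) of the 228 tested partner genes outside chromosome 16 by list (y axis), with grey points not called, purple squares called and red diamonds the chromosome 16 members each list belongs to. Partner points centre near 0 (median 0.03), and the squares are Crk (1.95), Prdx1 (0.57) and Nedd9 (-0.74).

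The labelled cell type was checked against marker genes. Of 13 neuronal markers 8 had a row and 4 were tested, Dlg4, Syn1, Tubb3 and Camk2a, and the summed neuronal level was 4317 and 3579 normalized reads in control libraries and 3523 and 4013 in induced libraries. Dlg4 had 1603 to 2385 normalized reads per library, Syn1 1072 to 1186, Tubb3 574 to 728 and Camk2a 23.2 to 108. Prox1, Slc17a7 and Gria1, genes of hippocampal neurons, had under 10 in every library, and Syp had 6.29 to 23.9. Rbfox3, Map2, Snap25, Grin1 and Neurod1 had no row. The 6 fibroblast markers summed to 473453 and 409247 in control libraries and 429664 and 443045 in induced libraries, and 2 of them, Dcn and Col3a1, were called lower in induced cells by limma. The other 4 did not pass, with log2 fold changes of 0.34 for Fn1, 0.12 for Col1a1, -0.07 for Col1a2 and -0.04 for Pdgfra. Astrocyte markers summed to 3021 to 4271 normalized reads per library, nearly all from Slc1a3, and microglia and leukocyte markers to 1659 to 2250, nearly all from Tmem119. Oligodendrocyte markers summed to 39.0 and 73.7 in control libraries and 109 and 89.0 in induced libraries, and 0 were called. Endothelial and male germ cell markers, beside which Tssk1 and Tssk2 can be read, summed to at most 31.4 and 7.42 normalized reads per library. Platelet markers, beside Gp1bb, summed to 560 and 498 in control libraries and 535 and 562 in induced libraries, of which Itga2b gave 425 to 463 per library, while Pf4 had at most 5.03. The part of any other cell type in the members' values was not tested.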

How the data were processed

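The 4 libraries were prepared from Trizol RNA with a TruSeq kit, per the labels' protocols. HISAT, Cufflinks and the build mm9 are named in the submitters' processing notes, without versions; which tool counted reads, with which annotation and scaling, is not given in the sources used here. Values as deposited are log2(normalized reads + 1): 2 raised to each value, minus 1, gave whole multiples of 1 step per library for 100% of values (tolerance 0.01), so reads were recovered. Totals were 25787452 to 35262653 reads per library.

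All genes averaging 1 CPM or more over the libraries were fitted with limma 3.58.1 in R 4.3.3 (variance trend, no covariate, two-sided, Benjamini-Hochberg over 13276 genes, threshold 0.05). Whether replicates are separate cultures is not in the labels; each p-value measures only the spread between these samples. The test was checked on simulated data, in which the changes were larger than the members' median difference. That check does not cover differences of the members' size. The members and lists were chosen with earlier results of these data known. All members are named, and in each partner list up to 3 called genes and the other of highest mean expression; of genes between the members the 3 highest and 3 lowest, of which 1 is not reported here. Gene order, exon lengths and overlaps came from GENCODE M21 (GRCm38, not the authors' build; 24591 of 24689 IDs matched), so no file coordinates are printed, and sequences came from RefSeq. Scaling by trimmed means (TMM) was computed with code written for this work. A count model was not run on the recovered reads, because limma had been planned for files of log2 values. In its place stands limma voom on the recovered reads.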

Additional observations from a re-analysis of the deposited data

How the results depend on the processing

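Over 10 alternatives, the members' median log2 fold change was 0.31 without the expression filter and 0.35 with the filter of 5 CPM, ran from 0.34 to 0.38 when 1 library was left out, and was 0.30 without members whose exons overlap another gene (chosen after seeing the data). The 7 members called higher became 0 without the filter, 1 with the replicate block and 0 to 1 when 1 library was left out. Of all tested genes 276 were called higher and 178 lower, against 100 and 59 without the filter, 157 and 104 with the replicate block, and 114 to 210 and 81 to 138 with 1 library left out. Partners called were 2 higher and 1 lower, against 1 to 4 and 0 to 3 with 1 library left out, and 0 lower without the filter. Fits on 3 libraries have fewer residual degrees of freedom and assume that the lone library of a group varies like the other group. The median of other genes inside the interval was 0.35 without the filter. That of genes after it was 0.35 with the filter of 5 CPM, 0.35 with TMM scaling and ran from 0.30 to 0.34 with 1 library left out, against 0.34. The sign of the log2 fold change was kept by 22 of 26 members in the alternatives that gave them a value (all 10 for 23 members, 9 for Prodh and Gp1bb and 7 for Car15, which fell below the filter in the others), and Lztr1, Dgcr2, Slc25a1 and Txnrd2 changed it when 1 library was left out. The replicate numbers are not stated to pair the samples. The deviations of same-numbered libraries had a correlation of -0.095 across genes. The cause of these shifts was not tested.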
